A study of Mus musculus with 2 samples.

Results

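The circadian clock output genes followed here are 10 named rows, Dbp, Tef, Hlf, Per1, Per2, Per3, Nr1d1, Nr1d2, Cry1 and Cry2, of the 21855 genes in a droplet single-cell RNA count table of mouse kidney, and all 10 were found. They were chosen by name for their known role in the clock, but selected on earlier results of the same 2 libraries, that is, on the FA over control ratios given here, so every ratio is a description and none is a test. The question was whether all cell types shifted the same way, as a difference in the time of day of sampling would give. One library came from a control kidney and the other from a kidney with nephropathy induced by folic acid (FA), a vitamin that injures the tubules at high dose; both are labelled wild type, the genotype that the 2 groups share. The sources used here do not give the dose, the time after FA, the hour of sampling, or the age and number of animals. With 1 library per group, treatment, hour of sampling, sex and preparation cannot be told apart, and no p-value was computed.

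In the mammalian clock, the transcription factors CLOCK and ARNTL (BMAL1) switch on genes through a DNA element called the E-box, and the PER and CRY proteins they induce then shut them off. The nuclear receptors NR1D1 and NR1D2 (REV-ERB alpha and beta) repress Arntl, and DBP, TEF and HLF, proteins of the PAR bZIP family, carry the rhythm to output genes through a second element, the D-box, at which NFIL3 acts as the repressor. The same loop runs in most cells of the body, and in the kidney it is known for daily rhythms of salt and water handling.

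Promoter letters are shown for the members that hold these elements, because the members differ in which element lies near the start while most of them shifted together. Of the 10 members, 9 matched the RefSeq promoter table (GRCm38.p6, 250 bases before to 50 after each start) by symbol, with 11 starts; Per2 did not match. The E-box searched was CACGTG, which reads the same on both strands, and it lay in 7.15% of all 32851 promoters in the table. It lay in 3 members, Tef (at both starts), Per1 and Cry1, shown as windows of 60 bases with the E-box in capitals, 5′ to 3′ on the gene's strand. These are chr15:81802519-81802578 (Tef, plus strand, upstream start), chr15:81811249-81811308 (Tef, plus strand, downstream start), chr11:69098756-69098815 (Per1, plus strand) and chr10:85185082-85185141 (Cry1, minus strand).
Tef upstream start: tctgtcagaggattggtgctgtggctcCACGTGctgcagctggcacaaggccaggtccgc
Tef downstream start: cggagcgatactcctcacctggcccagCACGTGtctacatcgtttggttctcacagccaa
Per1: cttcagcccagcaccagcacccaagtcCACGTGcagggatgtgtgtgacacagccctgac
Cry1: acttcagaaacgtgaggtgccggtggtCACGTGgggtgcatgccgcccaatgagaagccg

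The D-box core TTATGTAA, searched on both strands, lay in 0.938% of all promoters and in 1 member, Per3, which held it at 2 places, 205 and 158 bases before the start. The 250 bases before the Per3 start, chr4:151044666-151044915 on the minus strand, are shown with both matches in capitals. The variant TTACGTAA (0.119% of promoters) was in no matched member. The half-site AGGTCA that ROR and NR1D factors read, also searched on both strands, was in Nr1d2 and Per1 and in 16.3% of all promoters. These matches describe letters in a short window and say nothing of binding.
Per3: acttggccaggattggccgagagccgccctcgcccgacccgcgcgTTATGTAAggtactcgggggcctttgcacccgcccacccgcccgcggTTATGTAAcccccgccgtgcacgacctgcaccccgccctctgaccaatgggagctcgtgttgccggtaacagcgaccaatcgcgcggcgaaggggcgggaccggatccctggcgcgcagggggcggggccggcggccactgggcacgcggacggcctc

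The control library held 63646459 UMIs (molecules counted by their identifiers) in 9681 barcodes and the FA library 84138607 in 18997, of which 5807 and 13502 cells were kept, with median depths of 4829 and 3196 UMIs. Sex-linked genes differed too: Xist had 15 UMIs in the control and 104149 in the FA library, the Y-linked Ddx3y 3928 and 0. The libraries shared 54 barcode sequences. Cells fell into 38 clusters, named from marker genes as classes called "-like"; 11 classes had at least 50 cells in each library and were compared. Proximal tubule-like cells lay in clusters 4, 16, 21 and 22 in control and almost wholly in cluster 12 in FA, and macrophage-like cells in cluster 11 in control and in clusters 2 and 13 in FA. The summed markers of injured tubule, 9 genes found in both libraries, were higher in FA in all 11 classes, from 51.8 to 5858 counts per 1000000 (CPM) in control and from 545.3 to 33678 in FA. Their part in the values that follow was not tested.

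Over all kept cells, 8 of the 10 members were at least 1.5-fold lower in the FA library and 1, Per1, at least 1.5-fold higher. Of all 17946 genes measured, 27.7% were that much lower and 19.9% that much higher. These sums mix cell types whose shares differ between the libraries, so the classes are given separately after them. Levels are CPM of the summed UMIs of a class or library. A ratio divides the FA level by the control level, and intervals are exact, at 95%, and cover counting error only.

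**Figure D1:**
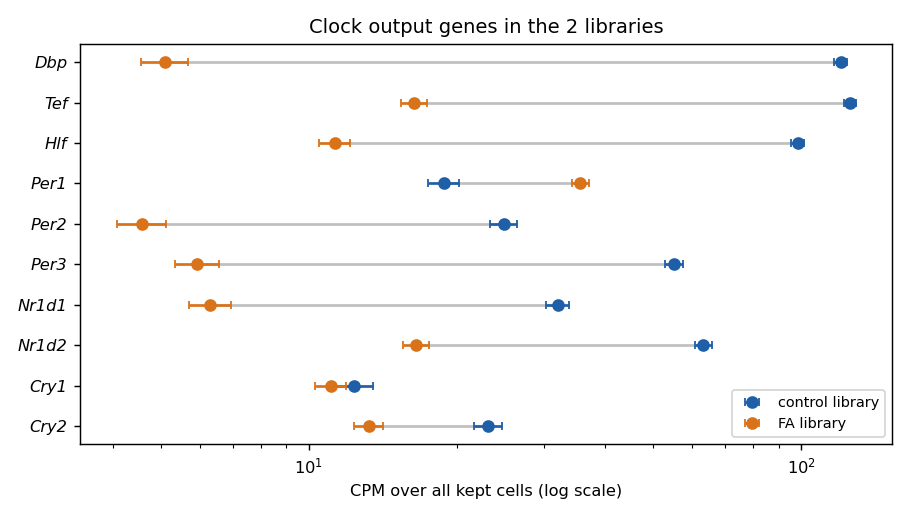
Level of each member over all kept cells (x axis, CPM, log scale) in the control library (blue) and the FA library (orange), with 95% Poisson intervals. Dbp lies at 120.3 in control and 5.10 in FA, Per1 is the one member with FA to the right, and the 2 points of Cry1 lie close together.

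Dbp, the albumin D-box binding protein, stood at 120.3 CPM in control and 5.10 in FA, a ratio of 0.0424 (0.0378 to 0.0474). Tef, the thyrotroph embryonic factor, stood at 125.5 and 16.4, a ratio of 0.130 (0.122 to 0.139). Hlf, the hepatic leukemia factor, stood at 98.4 and 11.3, a ratio of 0.115 (0.106 to 0.124). All 3 PAR bZIP outputs were thus lower in FA, Dbp by the widest ratio of the 10 members.

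Per2, a repressor of CLOCK and ARNTL, stood at 24.9 and 4.58 CPM (ratio 0.184, 0.161 to 0.210), and Per3, its relative, at 55.2 and 5.93 (ratio 0.107, 0.0961 to 0.120). Per1 went the other way, from 18.8 in control to 35.6 in FA (ratio 1.89, 1.74 to 2.06). The 3 Period genes therefore did not share a direction.

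Nr1d1 stood at 32.0 and 6.30 CPM (ratio 0.197, 0.176 to 0.220) and Nr1d2 at 63.3 and 16.5 (ratio 0.261, 0.243 to 0.281). Of the cryptochromes, Cry2 stood at 23.1 and 13.2 (ratio 0.572, 0.521 to 0.629). Cry1 stood at 12.4 and 11.1 (ratio 0.896, 0.798 to 1.01), with 1 inside its interval. The REV-ERB pair was lower in FA, Cry2 less so, and Cry1 did not differ beyond counting error.

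Of the 110 pairs of a member and a compared class, 86 held at least 20 UMIs over both libraries and were measured. In 62 of them (72.1%) the member was at least 1.5-fold lower in FA and in 9 (10.5%) at least 1.5-fold higher; over all genes, 18.3% of such pairs were lower and 19.1% higher. The 9 pairs higher were 5 of Per1, 2 of Cry1, and 1 each of Nr1d1 and Nr1d2. Per1, Cry1 and Cry2 were lower in 1 of 11, 4 of 10 and 5 of 9 pairs. They had the weakest or opposite shifts in these same data. The other 7 members made up 56 pairs, of which 52 were lower, and this count depends on setting those 3 aside. Since a pair passed on the sum of both libraries, a member high in control passed even where FA held few UMIs: 13 of the 62 rested on 5 FA UMIs or fewer. Of the 24 pairs under 20 UMIs, 19 had the lower level in FA, 4 the higher, and 1, Nr1d1 in dendritic-like cells, was at 0 in both libraries.

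Dbp, Tef, Hlf, Per2 and Per3 had a ratio under 1 in every class where they were measured, 8, 10, 6, 6 and 8 classes in turn. Among the 10203 genes measured in at least 5 classes, 3.33% were under 1 in every one and 4.36% above 1 in every one. The other 5 members had classes on both sides of 1. By the median log2 ratio over classes, counted from the lowest of those 10203 genes, Dbp came at place 3, Per3 at 8, Hlf at 11, Nr1d1 at 13, Tef at 14, Nr1d2 at 44 and Per2 at 51. Cry2 came at place 625 and Cry1 at 1471, and Per1 at place 1159 from the highest.

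**Figure D2:**
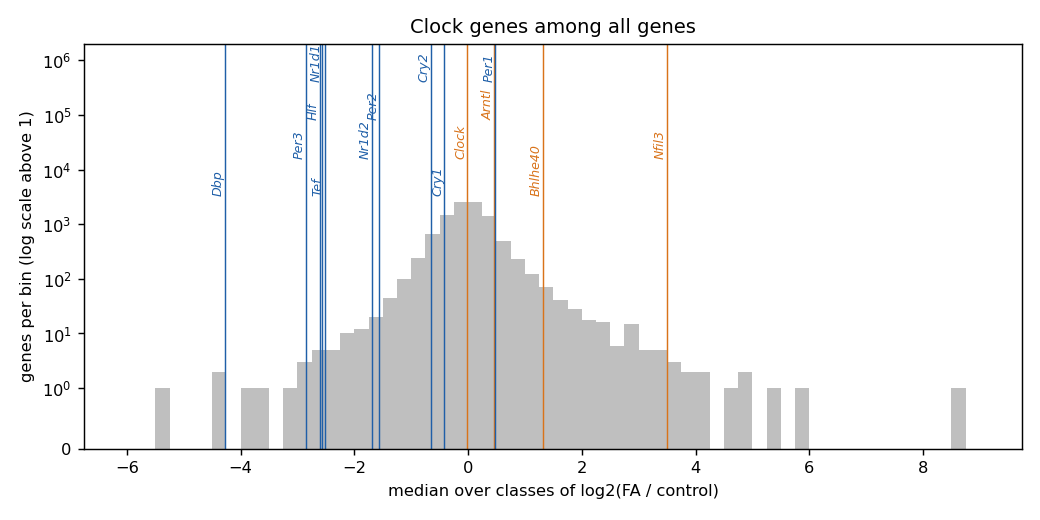
Number of genes (y axis, log scale above 1) by the median over classes of the log2 FA over control ratio (x axis), for the genes measured in at least 5 classes, with lines at the members (blue) and at Clock, Arntl, Bhlhe40 and Nfil3 (orange). Dbp, Per3, Hlf, Nr1d1 and Tef lie in the sparse left tail between -4.28 and -2.52, Cry1, Cry2 and Per1 lie within the bulk, and Nfil3 lies in the right tail at 3.50.

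The ratios by class ordered the cell types differently from member to member, but endothelial-like or stromal-like cells lay furthest down for most. The median of the measured members was -3.63 on the log2 scale in endothelial-like cells, -2.94 in stromal-like, -2.44 in macrophage-like, -2.31 in urothelial-like, -1.89 in intercalated-like, -1.70 in podocyte-like, -1.44 in proximal tubule-like, -0.85 in monocyte-like, -0.47 in dendritic-like, -0.74 in T cell-like and 0.94 in B cell-like cells. The same median over all genes stayed between -0.13 and 0.10 in these classes. B cell-like and monocyte-like cells gave only 3 measured members each and dendritic-like cells 5. The endothelial-like median rests on 0 to 6 FA UMIs per member. The intercalated-like one rests on 3 to 13 per measured member, with a different mix of clusters in the 2 libraries.

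Counted at 1.5-fold, 9 of 10 members were lower in endothelial-like cells (20.8% of all genes there), 8 of 10 in stromal-like (24.1%), and 8 of 10 in proximal tubule-like cells (15.3%). The count was 8 of 9 in macrophage-like cells (21.2% of all genes there), 7 of 10 in podocyte-like (12.7%), 7 of 9 in urothelial-like (19.3%) and 6 of 8 in intercalated-like cells (18.2%). It was 5 of 9 in T cell-like cells (15.3% of all genes there), 0 of 3 in B cell-like (13.8%), 2 of 5 in dendritic-like (17.4%) and 2 of 3 in monocyte-like cells (23.6%). Lower members were thus found in 10 of the 11 classes, and B cell-like cells, where only Tef, Per1 and Nr1d2 were measured, were the exception. That exception and the median of 0.94 in this class rest on the 20-UMI minimum: Dbp in B cell-like cells, with 13 UMIs in control and 6 in FA, fell 1 short of it, at 23.1 and 6.03 CPM.

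**Figure D3:**
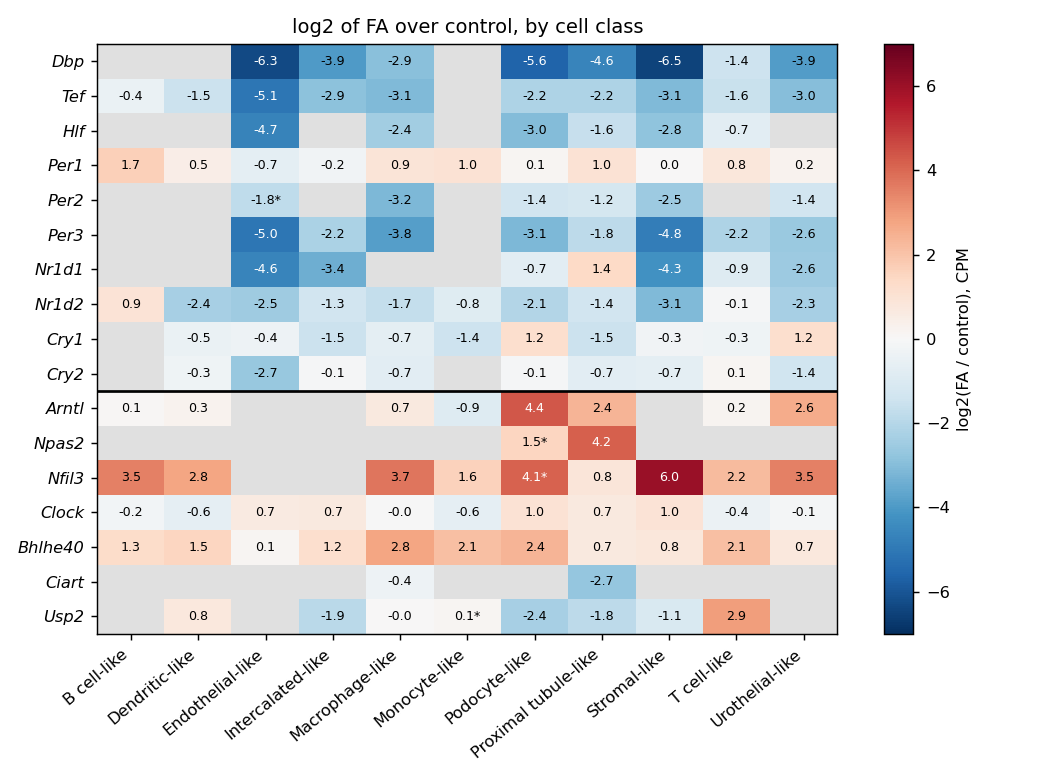
log2 FA over control ratio (colour and number) of the 10 members, above the black line, and of 7 other clock genes, under it, in the 11 compared classes; grey marks pairs without a value and an asterisk a bound from 0 UMIs on one side. Dbp, Tef, Hlf, Per2 and Per3 are blue in every measured class, Per1 is mostly pale or red, and Nr1d1 is red in proximal tubule-like cells at 1.4.

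Dbp levels differed widely between cell types. In control it was highest in stromal-like cells at 379.9 CPM (interval 343.8 to 418.8), podocyte-like cells at 362.2 (324.5 to 403) and endothelial-like cells at 356.9 (335.7 to 379.1), which did not differ beyond their intervals. Thick ascending limb-like cells at 146.3, urothelial-like at 119.9 and distal convoluted tubule-like cells at 102.3 came next, each overlapping its neighbour. Intercalated-like cells at 88.1 and proximal tubule-like cells at 83.6 followed. Immune classes were lowest, from 25.6 in T cell-like cells through 23.1 in B cell-like, 17.0 in dendritic-like and 12.1 in macrophage-like to 5.36 in monocyte-like cells, the last from 2 UMIs. Structural cells therefore held more Dbp per UMI than immune cells in control.

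This order was seen only in part in the FA library. No class there stood above 12.1 CPM, the level of NK cell-like cells, which had too few control cells to compare. T cell-like cells stood at 9.49, injured tubule-like at 9.47, urothelial-like at 8.06, podocyte-like at 7.34, B cell-like at 6.03, intercalated-like at 5.72, endothelial-like at 4.56, stromal-like at 4.19 and proximal tubule-like at 3.43. Monocyte-like cells had 0 UMIs, which allows up to 0.997 CPM by the Poisson interval. Macrophage-like cells at 1.61 (1.023 to 2.421) and dendritic-like cells at 0.508 (0.1048 to 1.485) were low too, as in control. Their intervals lay under those of podocyte-like (5.356 to 9.825), injured tubule-like (7.247 to 12.17) and T cell-like cells (7.278 to 12.17). Most of the other intervals overlapped, so the other FA classes could hardly be ordered.

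The ratio of Dbp was 0.0110 (0.00299 to 0.0285) in stromal-like cells, from 405 UMIs in control and 4 in FA. It was 0.0128 (0.0003235 to 0.0714) in endothelial-like cells, from 1055 and 1 UMIs, and 0.0203 (0.0145 to 0.0277) in podocyte-like cells, from 337 and 45. At the other end, macrophage-like cells had a ratio of 0.134 (0.0782 to 0.223) and those like T cells one of 0.371 (0.251 to 0.550). Every interval lay under 1, but the size of the shift ranged from -6.50 to -1.43 on the log2 scale. Over single clusters with at least 50 cells in a library, Dbp ran from 5.36 to 510.4 CPM in 22 control clusters and from 0 to 16.6 in 25 FA clusters, and the 2 ranges overlapped only among the lowest control clusters.

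T cell-like cells did not behave as one for Dbp. In their cluster 0 Dbp stood at 47.0 and 9.67 CPM in control and FA, and in cluster 7 at 21.6 and 5.51. In cluster 17 it stood at 10.7 and 16.6, from 5 and 23 UMIs, a ratio of 1.55 whose interval, 0.577 to 5.23, includes 1. Cluster 17 was thus not shown to share the lower Dbp of the other 2. Its other members were mixed: Tef had a ratio of 0.460 (0.198 to 1.11) and Nr1d2 one of 2.08 (0.871 to 6.03). Hlf and Per3, under 20 UMIs there, had lower levels in FA. Outside the named classes, cluster 30 (unnamed, 83 control cells and 52 of FA) had Dbp at 239.8 and 5.02 and Per3 at 149.4 and 4.02.

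**Figure D4:**
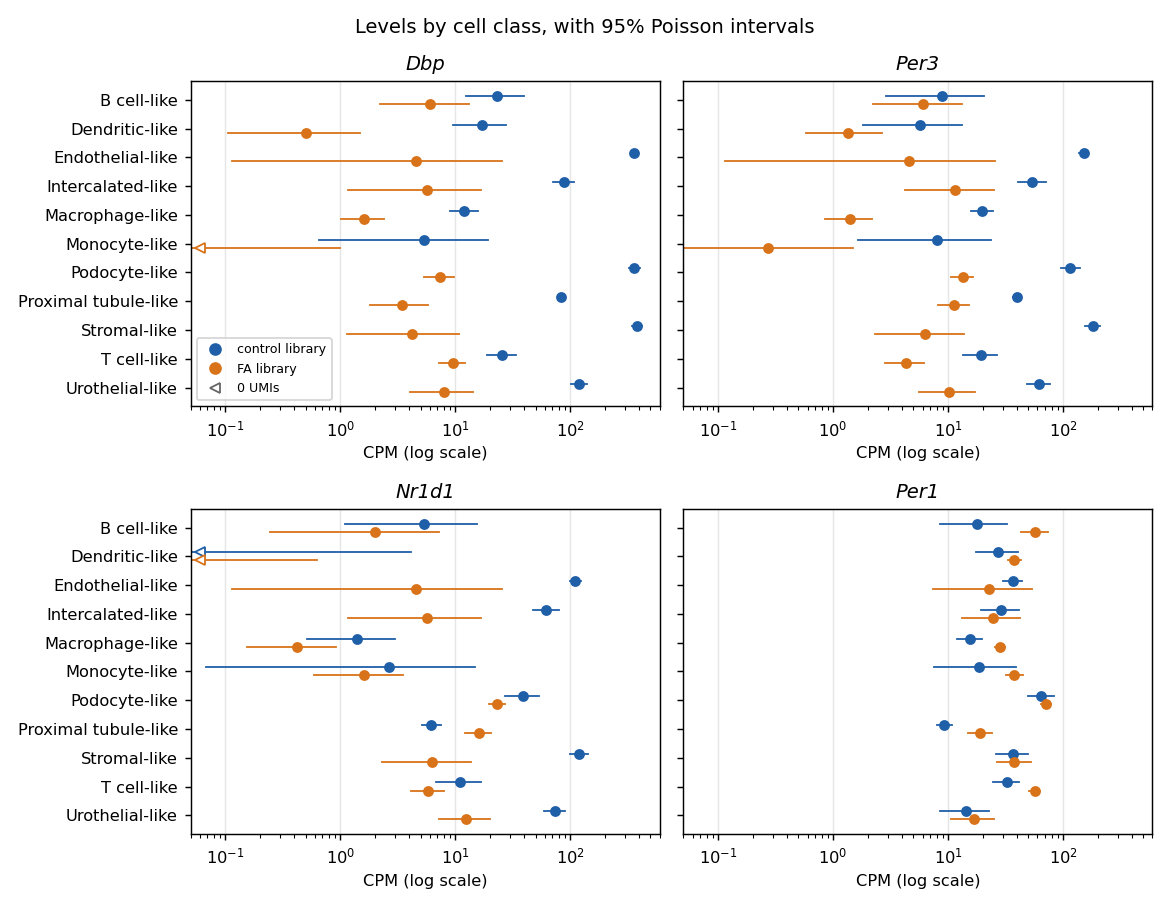
Level of Dbp, Per3, Nr1d1 and Per1 (x axis, CPM, log scale) in each compared class in control (blue) and FA (orange), with 95% Poisson intervals; open triangles mark 0 UMIs. Dbp and Per3 are to the left in FA in every class, whereas Nr1d1 in proximal tubule-like cells and Per1 in most classes are to the right.

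Tef followed Dbp with a narrower range. It stood at 153.9 and 4.56 CPM in endothelial-like cells, the latter from 1 UMI (ratio 0.0296, interval 0.0007491 to 0.166), and at 187.6 and 22.0 in stromal-like cells (ratio 0.117, 0.0711 to 0.184). In proximal tubule-like cells it stood at 165.9 and 36.9 (ratio 0.222, 0.186 to 0.264) and in T cell-like cells at 34.5 and 11.6 (ratio 0.337, 0.239 to 0.476). B cell-like cells, at 23.1 and 17.1, were the one measured class whose interval (0.338 to 1.65) held 1.

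Hlf was highest in proximal tubule-like cells in both libraries, 166.8 CPM in control and 55.1 in FA (ratio 0.330, 0.286 to 0.380). Stromal-like cells stood at 145.4 and 20.96 (ratio 0.144, 0.0857 to 0.230) and podocyte-like cells at 69.8 and 8.65 (ratio 0.124, 0.0845 to 0.181). T cell-like cells had the mildest shift, from 25.1 to 15 (ratio 0.598, 0.419 to 0.863). The proximal tubule thus kept more of its Hlf than of its Dbp, whose ratio there was 0.0410 (0.0218 to 0.0703), and these 2 intervals did not overlap.

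Per3 came closest to Dbp in pattern. It stood at 181.0 and 6.29 CPM in stromal-like cells (ratio 0.0347, 0.0126 to 0.0770), at 116.1 and 13.4 in podocyte-like cells (ratio 0.115, 0.0854 to 0.155) and at 19.95 and 1.40 in macrophage-like cells (ratio 0.0703, 0.0409 to 0.116). In T cell-like cells the ratio was 0.222 (0.131 to 0.372) and in proximal tubule-like cells 0.286 (0.205 to 0.389), the mildest of the 8. All 8 intervals lay under 1.

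Per2 gave fewer UMIs and smaller shifts. It stood at 31.9 and 13.4 CPM in proximal tubule-like cells (ratio 0.422, 0.310 to 0.562), at 43.2 and 16.9 in urothelial-like cells (ratio 0.391, 0.229 to 0.647) and at 6.26 and 0.702 in macrophage-like cells (ratio 0.112, 0.0484 to 0.239). In endothelial-like cells it had 137 UMIs in control and 0 in FA. That is 3.38-fold lower with FA set to a floor of 3 counts, and the interval of the ratio reaches 0.368. All 6 measured classes lay under 1.

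Per1, which besides its clock control is known as an immediate early gene and a target of the glucocorticoid receptor, showed no such common shift. It was at least 1.5-fold higher in FA in B cell-like cells (17.8 and 57.3 CPM, ratio 3.22, 1.63 to 7.07), proximal tubule-like cells (9.32 and 19.0, ratio 2.04, 1.52 to 2.70), macrophage-like cells (15.5 and 28.6, ratio 1.84, 1.42 to 2.42) and T cell-like cells (32.4 and 56.6, ratio 1.75, 1.33 to 2.33). Monocyte-like cells also passed that fold, at a ratio of 2.02, with 1 inside the interval (0.953 to 5.11). In stromal-like cells it was level, at 36.6 and 37.7 (ratio 1.03, 0.637 to 1.67), and in intercalated-like cells the ratio was 0.854. Endothelial-like cells were the one class at least 1.5-fold lower, at 36.5 and 22.8 (ratio 0.625), from 108 and 5 UMIs and with 1 inside the interval (0.199 to 1.503). No class had an interval wholly under 1. Per1 therefore stood apart from Per2 and Per3 in the same cells.

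Lists of genes that share Per1's other inputs were read beside it. Of 15 immediate early and stress genes, whose transcripts appear within minutes of stimulation and during tissue dissociation, 13 were at least 1.5-fold higher in FA over all cells and 0 lower, with a median log2 ratio of 1.18 against -0.08 over all genes. Among the 5 with most UMIs, Fos had a ratio of 2.97, Jun of 1.63, Junb of 3.21, Atf3 of 6.13 and Jund of 1.22. By class the list's median ran from -0.06 in macrophage-like cells to 1.89 in proximal tubule-like cells. Of 10 glucocorticoid-induced genes, 4 were higher and 2 lower over all cells, with a median of 0.50. For both lists, the shares of all genes over all cells were 19.9% higher and 27.7% lower. In that list Dusp1 had a ratio of 2.55, Cebpd of 7.204, Tsc22d3 of 1.45, Errfi1 of 0.690 and Klf9 of 0.470. Within classes these whole-library ratios did not all hold: Klf9 and Errfi1 were each at least 1.5-fold higher in 7 of 11 classes and lower in 0, and Tsc22d3 was higher in 1 and lower in 4. The median of this list ran from 0.42 in dendritic-like to 1.04 in B cell-like cells. Over all cells both lists had medians above 0, as Per1 did, but by class they followed Per1 only in part. In proximal tubule-like cells the immediate early list stood at 1.89, the glucocorticoid-induced list at 0.70 and the log2 ratio of Per1 at 1.03. The same 3 values were 0.40, 1.04 and 1.69 in B cell-like cells and -0.06, 0.47 and 0.88 in macrophage-like cells. They were 0.97, 0.54 and 0.04 in stromal-like, 0.79, 0.60 and -0.68 in endothelial-like, and 0.76, 0.86 and -0.23 in intercalated-like cells. The part of these genes in the level of Per1 was not tested.

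Nr1d1 was lower in 6 of its 7 measured classes. It stood at 120.1 and 6.29 CPM in stromal-like cells (ratio 0.0524, 0.0189 to 0.117), at 73.5 and 12.5 in urothelial-like cells (ratio 0.170, 0.0947 to 0.286) and at 38.7 and 23.2 in podocyte-like cells (ratio 0.599, 0.413 to 0.889). Proximal tubule-like cells went the other way, from 6.21 in control, the lowest of the structural classes, to 16.1 in FA (ratio 2.59, 1.86 to 3.56). That class holds different clusters in the 2 libraries, and its injured tubule markers stood at 1189 and 33678 CPM. With the class widened, after the data were seen, to injured tubule-like cells and the unnamed clusters 1, 3 and 30 nearest to tubule, Nr1d1 stood at 10.3 and 9.10 (ratio 0.885, 0.708 to 1.10). Widening changed both sides. In FA, Nr1d1 stood at 15.8 in cluster 12 and at 5.79, 3.46 and 8.23 in clusters 1, 3 and 9. In control it stood between 3.60 and 9.06 in the 4 proximal tubule-like clusters but at 70.5 in the 83 cells of cluster 30, which gave 85 of the 202 control UMIs and stood at 6.02 in FA. Cluster 30 is led by Tnc and Ncam1, and its second nearest class is stromal. In the widened class without it, also chosen after the data were seen, Nr1d1 stood at 6.35 and 9.32 (ratio 1.47, 1.14 to 1.90), so the change of side came with the control cells of that cluster, and the ratio was smaller than in the class as first named.

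In the same widened class Dbp stood at 93.0 and 6.96 CPM, so its ratio of 0.0748 (0.0610 to 0.0909) stayed under 1. Tef (0.189), Hlf (0.165), Per2 (0.299), Per3 (0.249) and Nr1d2 (0.372) also kept their side of 1 there, and so did Per1 (2.14). Of the 10 members Nr1d1 alone changed side, and without cluster 30 none did.

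Nr1d2 was measured in all 11 classes and was lower in 9. It stood at 144.5 and 16.8 CPM in stromal-like cells (ratio 0.116, 0.0647 to 0.195), at 103.2 and 24.8 in podocyte-like cells (ratio 0.240, 0.185 to 0.314) and at 64.4 and 25.04 in proximal tubule-like cells (ratio 0.389, 0.312 to 0.480). T cell-like cells were level, at 32.4 and 31.1 (ratio 0.959, 0.718 to 1.30). B cell-like cells stood at 8.89 and 17.1, from 5 and 17 UMIs, with 1 inside the interval (0.680 to 6.66). Nr1d2 was thus not shown to be lower in lymphoid cells, and it was lower in dendritic-like cells, with a ratio of 0.197 (0.0977 to 0.403).

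Of the cryptochromes, which repress CLOCK and ARNTL together with the PER proteins, Cry1 had no common direction. In podocyte-like cells it stood at 19.3 and 43.2 CPM (ratio 2.24, 1.39 to 3.83), whereas in proximal tubule-like cells it stood at 9.10 and 3.16 (ratio 0.348, 0.176 to 0.624) and in monocyte-like cells at 21.4 and 7.83 (ratio 0.366, 0.163 to 0.925). The intervals of its other 7 measured classes held 1. Cry2 was lower in 5 of 9 classes, among them urothelial-like cells at 39.96 and 15.4 (ratio 0.385, 0.220 to 0.653) and proximal tubule-like cells at 23.7 and 14.2 (ratio 0.601, 0.444 to 0.798). Podocyte-like cells, with 75.2 and 70.3 (ratio 0.935, 0.725 to 1.22), had the highest Cry2 in both libraries.

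The rest of the loop was read from a list of 17 core genes and regulators. Over all cells 5 were higher and 6 lower in FA, with a median of -0.12, close to that of all genes. Of all genes, 19.9% were higher and 27.7% lower. Among the 5 with most UMIs, named by the rule, were Bhlhe40, a repressor at E-boxes (45.4 and 176.3 CPM, ratio 3.88), Rora, an activator of Arntl (ratio 0.9196), the kinase gene Csnk1d (ratio 1.47) and Usp2, a rhythmic deubiquitinase (88.4 and 17.0, ratio 0.193). Bhlhe40 was at least 1.5-fold higher in 10 of 11 classes. The list as a whole did not move one way.

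Outside that rule, and chosen after their values were seen, are the genes that peak opposite to Dbp or next to it in the known cycle. Arntl stood at 4.45 and 12.8 CPM over all cells (ratio 2.88, 2.44 to 3.40) and lay above 1 in 7 of 8 measured classes. It was highest by ratio in podocyte-like cells, with 1 UMI in control and 136 in FA (ratio 20.65, 3.645 to 821.6), then urothelial-like (6.08, 2.87 to 14.8) and proximal tubule-like cells (5.26, 3.61 to 7.68). In B cell-like, dendritic-like, macrophage-like, monocyte-like and T cell-like cells the interval held 1. Arntl was thus higher beyond counting error in the 3 structural classes where it was measured and in no immune class.

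Nfil3, the repressor at D-boxes, lay opposite to the members: it stood at 6.08 and 54.5 CPM over all cells (ratio 8.95, 7.87 to 10.2) and was at least 1.5-fold higher in all 9 classes where it was measured. Its median log2 ratio over classes was 3.50, place 14 from the highest of the 10203 genes. In podocyte-like cells it had 0 UMIs in control and 344 in FA. That is 17.4-fold higher with control set to a floor of 3 counts, and the interval starts at 14.1. In proximal tubule-like cells it stood at 5.94 and 10.5 CPM (ratio 1.77, 1.20 to 2.57). Npas2, a relative of Clock, had a ratio of 9.57 over all cells (5.94 to 16.4), and Ciart, a repressor that peaks with Dbp, one of 0.172 (0.130 to 0.225), whereas Clock itself had one of 1.06 (0.995 to 1.12). Npas2 and Ciart were measured in only 2 classes each. Npas2 was higher in proximal tubule-like cells (ratio 18.14) and podocyte-like cells (2.784, with control set to the floor). Ciart had a ratio of 0.1524 in proximal tubule-like cells and 0.7779 in macrophage-like cells. The latter interval (0.31 to 2.203) held 1. In macrophage-like cells, where 8 of 9 members were lower, Arntl was not shown to be higher. Nfil3 was thus higher beyond counting error in both structural and immune classes, and Arntl in structural classes only. Npas2 was measured in no immune class, so it could not be compared in this way.

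Of 12 genes known as rhythmic or bZIP-regulated outputs in the kidney, 8 were lower and 2 higher over all cells, with a median of -1.23. The shares of all genes were 27.7% lower and 19.9% higher. Many of the listed genes are tubule genes, and the tubule's share of cells differed: proximal tubule-like cells made up 38.3% of control and 5.05% of FA cells. Within that class, 2 of the 9 measured were lower and 2 higher, with a median of -0.14. Of all genes there, 15.3% were lower and 25.05% higher. Of the 5 with most UMIs, the ratio over all cells was 0.372 for Atp1b1, a sodium pump subunit, 0.825 for Nampt, 0.578 for Por, 0.485 for Tspan4 and 2.04 for Klf10. The lower list over all cells was therefore not seen as a whole among the 9 genes measured within the proximal tubule, though Gys2 and Nampt were lower there. That class could not show Scnn1a, Avpr2 and Aqp2, which were lower over all cells (ratios 0.195, 0.177 and 0.323) but not measured there. Scnn1a was lower in 2 of its 3 measured classes, among them intercalated-like cells (ratio 0.579, 0.460 to 0.724).

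Across 29 sums of a class in a library, the genes whose log level was most like that of Dbp, of 12299 compared, were Per3 (Pearson r 0.929), Nr1d2 (0.928), Tef (0.907), Zfp91 (0.837) and Zbtb4 (0.815). The sums share libraries and depth, so these values are a description. Nr1d1 followed at 0.786, Per2 at 0.767, Hlf at 0.746 and Cry2 at 0.713, whereas Cry1 stood at 0.183 and Per1 at 0.047. Per1 and Cry1 thus followed Dbp least.

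Free RNA was gauged from 11 proximal tubule markers. In the other compared classes they stood at 0.0185% to 2.30% of their level in proximal tubule-like cells in control and at 0.123% to 3.71% in FA. Stromal-like control cells, with the highest share, would carry 1.92 CPM of Dbp at that share and held 379.9, and their 4.19 in FA compares with 0.0346. In macrophage-like cells 0.970 of the 12.1 of Dbp in control would be covered. The share was larger for Hlf, which is high in the proximal tubule. In macrophage-like cells it covered 1.94 of 4.17 CPM in control and 0.371 of 0.772 in FA, and in endothelial-like FA cells 1.42 of 4.56. Where Hlf was not measured, it gave 3.80 against 5.33 in B cell-like control cells and 2.05 against 1.91 in intercalated-like FA cells. The gauge covers only these markers, which were themselves lower in FA in proximal tubule-like cells (21640 and 8311 CPM). Injured tubule markers stood at 3537 CPM in endothelial-like FA cells and 33678 in proximal tubule-like FA cells. How much of that was free RNA was not tested. Barcodes with over 50% mitochondrial UMIs, left out of the levels and ratios above, were more frequent in control (34.9% against 15.7%). A part of them, 1304 in control and 2001 in FA, was scaled to the non-mitochondrial UMIs. They gave a Dbp ratio of 0.0649 (0.0235 to 0.144) and a Per1 ratio of 1.46 (0.944 to 2.23).

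On GRCm38, in the GENCODE M21 annotation, Dbp lies on chr7:45705088-45710203 and its end overlaps 737 bases of Sphk2 on the other strand. Nr1d1, on chr11:98767932-98775333, overlaps 1075 bases of Thra on the other strand. Per3, on chr4:151003652-151044665, lies within the span of Camta1 on the same strand, Tef overlaps 193 bases of Gm17597, and Cry2 overlaps 23417 bases of D930015M05Rik. The sources used here do not say whether the counting used strand, so reads in the opposite-strand overlaps cannot be told apart. Over all cells Sphk2 stood at 17.0 and 16.7 CPM (ratio 0.984), Camta1 at 26.4 and 27.4 (ratio 1.04) and Thra at 47.0 and 28.3 (ratio 0.602). Neither Sphk2 nor Camta1 was thus as much as 1.5-fold lower, and Thra was, though less than Nr1d1. Gm17597 had 20 UMIs in control and 0 in FA, and D930015M05Rik 14 and 7 (ratio 0.313). Both had lower levels in FA, from few UMIs, and neither was measured in any class.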

How the data were processed

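The authors deposited 1 matrix of UMI counts for both libraries, every value whole; Seurat and mm10 are named per the submitters' processing notes, and the sources used here do not give the aligner or counter. Barcodes starting with FA3 were taken as FA and those with C3 as control, on the strength of the letter alone, since no key states it. Cells with at least 200 genes, 500 UMIs and at most 50% mitochondrial UMIs were kept. Likely doublets, the highest Scrublet scores at 0.8% per 1000 barcodes (scanpy 1.11.5), were left out, 488 in control and 2420 in FA. Cells were clustered without integration on 2000 variable genes (members, list genes that are no markers, mitochondrial and sex-linked genes barred), 30 principal components, 15 neighbours and Leiden resolution 1 (leidenalg 0.10.2). Clusters were named from marker lists; the naming thresholds were set after the clusters were seen, and 6 clusters stayed unnamed. The members, lists and markers were chosen with earlier results of these data known.

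Within each class and library UMIs were summed and scaled to counts per 1000000 (CPM). Ratios have exact conditional binomial intervals, levels exact Poisson intervals, at 95% (scipy 1.17.1). A 0 on one side was set to 3 counts as a bound; a bound past 1 was left out, a choice made after the data were seen. A gene needed UMIs in both libraries, which 18057 genes had, and 20 UMIs over both in a class with at least 50 cells in each. The ratio code was tested on simulated counts. All members are named; of each list, the 5 genes with most UMIs, 1 of which is not reported here. For likeness to Dbp, log2 CPM with a pseudocount of 1 was compared over genes reaching 20 CPM. Alternatives were cell filters, doublets, resolution, scaling, weighting of cells, UMI minimum and fold threshold.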

Additional observations from a re-analysis of the deposited data

Results flagged for a closer look

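Nr1d1 lay on both sides of 1: its log2 ratio was 1.37 in proximal tubule-like cells and -4.60 in endothelial-like cells, with intervals that exclude 1 in opposite directions. The difference between the classes was not tested, the endothelial value rests on 1 FA UMI, and the tubule value changed side when the class was widened but not when it was widened without cluster 30 (0.55).

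Cry1 likewise lay on both sides of 1, with a log2 ratio of 1.16 in podocyte-like cells and -1.52 in proximal tubule-like cells, each with an interval that excludes 1. This difference was not tested either.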

How the results depend on the processing

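At a 2-fold threshold, 0 members were higher over all cells, against 1 at 1.5-fold, since Per1 lay between. With the tubule class widened, an alternative chosen after seeing the data, the log2 ratio of Nr1d1 went from 1.37 to -0.18. Without cluster 30, which gave 85 of the 202 control UMIs of that class, it was 0.55. The other counts stayed within 1.5 times their value under the alternatives run: without endothelial-like cells, also chosen after seeing the data, 53 of 76 pairs were lower and 9 higher, and without proximal tubule-like and macrophage-like cells 46 of 67 were lower and 6 higher. No other ratio changed sign past its call. When classes were weighed equally, 7 of the 10 whole-library values moved beyond their counting intervals, all to the same side of 0. No paired analysis was possible because each group is 1 library. Depth limits endothelial-like cells most, where 86 FA cells gave 0 to 6 UMIs per member, and B cell-like and monocyte-like cells, with 3 measured members each. It also limits intercalated-like cells, with a median of 1147 UMIs per cell in FA against 5173 in control. Their clusters 23 and 33 held 67 and 73 cells in control and 191 and 28 in FA.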
